A study of Mus musculus with 12 samples.

Results

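Melphalan alone was compared with untreated control in the small intestine of the mouse, as 3 Melphalan libraries against 3 Control libraries of bulk RNA sequencing. The labels call the Control samples wild type and give the Melphalan samples the drug as their only treatment. The series holds 12 libraries in 4 groups of 3. The 2 further groups, Mel+MSC and MSC+Mel, received melphalan together with mesenchymal stem cells (MSC) from human umbilical cord, and they enter here through the shared estimate of the spread and through values set beside those of the drug alone. No strain, sex, age, dose, route, time after the drug or hour of collection is stated in the labels. They also do not say whether the libraries are separate animals, so every p-value rests on how far libraries of a group differ, a spread that may be technical. Genes were taken by level alone, at 1 FPKM or more in at least 3 of the 12 libraries, which kept 12847 of the 55484 genes of the deposited table. FPKM counts sequenced fragments relative to transcript length and library size. Log2 changes are the difference of mean log2(FPKM + 1), Melphalan minus Control, a scale that understates the change of low genes.

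Melphalan is a nitrogen mustard that alkylates DNA and links its strands to each other. Crosslinks stall replication forks, and the kinases that sense stalled forks stabilise the transcription factor p53, which turns on genes that halt the cell cycle and genes that kill the cell. The intestinal lining depends on division more than most tissues. Stem cells at the crypt base, wedged between antimicrobial Paneth cells, feed a zone of dividing progenitors, whose daughters move up the villus as absorptive enterocytes, mucus-secreting goblet cells, hormone-secreting enteroendocrine cells or chemosensory tuft cells.

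The libraries were those of small intestine by their markers. All 26 brush border genes passed the filter, the colon markers Hoxb13, Hoxa13, Hoxd13 and Car1 were listed at 0 in all 6 libraries, and 12 pancreatic acinar genes together reached between 0.525 and 1.89 FPKM. Control libraries summed to between 536360 and 710451 FPKM and Melphalan libraries to between 584241 and 796980, and with no counts in the files the read depth is not known. Control libraries were alike, with Spearman correlations of 0.943 to 0.957 across genes, and Melphalan libraries less so, at 0.829 to 0.933. The mean residual variance of a gene was 0.176 in Control and 0.42 in Melphalan. It was 0.293 in Mel+MSC and 0.0806 in MSC+Mel. All 4 groups share the estimate of the spread, so standard errors and p-values rest partly on MSC+Mel, tighter than either group compared. Melphalan 2 stood apart with 1828 FPKM over 21 B cell and follicle genes, beside 9.2 to 147 in the other 5 libraries. Melphalan 1 stood apart with 400 FPKM over 8 adipocyte genes (54.5 to 125 elsewhere) and 2655 FPKM over 13 plasma cell genes (6786 to 13297 elsewhere). Control 3 was the lowest Control library for mitotic genes. An exact 0 can be a failed estimate in these files, since mt-Nd4, a gene of every mitochondrion, was listed at 0 in Control 1, Control 3 and Melphalan 1.

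Genes that rose in the Melphalan libraries included p53 targets, and genes that fell included those of mitosis, of the crypt base and of Paneth cells. By limma with Benjamini-Hochberg adjustment, 171 genes (1.33% of those tested) passed an adjusted p of 0.05. Of these, 64 rose (0.498% of those tested) and 107 fell (0.833%). An unadjusted p under 0.05 was found for 2336 of the 12847 tested genes, 1132 of them higher and 1204 lower. Counts at that level for single lists are to be read beside these. The median change over all tested genes was 0.03, and 52.4% were fitted above 0. In all 171 called genes the 3 Melphalan libraries lay wholly above or wholly below the 3 Control libraries, which held for 2509 of the tested genes (19.5%), 1133 above (8.82%) and 1376 below (10.7%). Among the called genes 47 rose and 90 fell by at least 1 on the log2 scale. Of the called genes 46 are on one of 61 gene lists (15 higher, 31 lower) and 125 are on none. In bulk tissue, fewer cells of a type and less RNA per cell cannot be told apart.

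**Figure D1:**
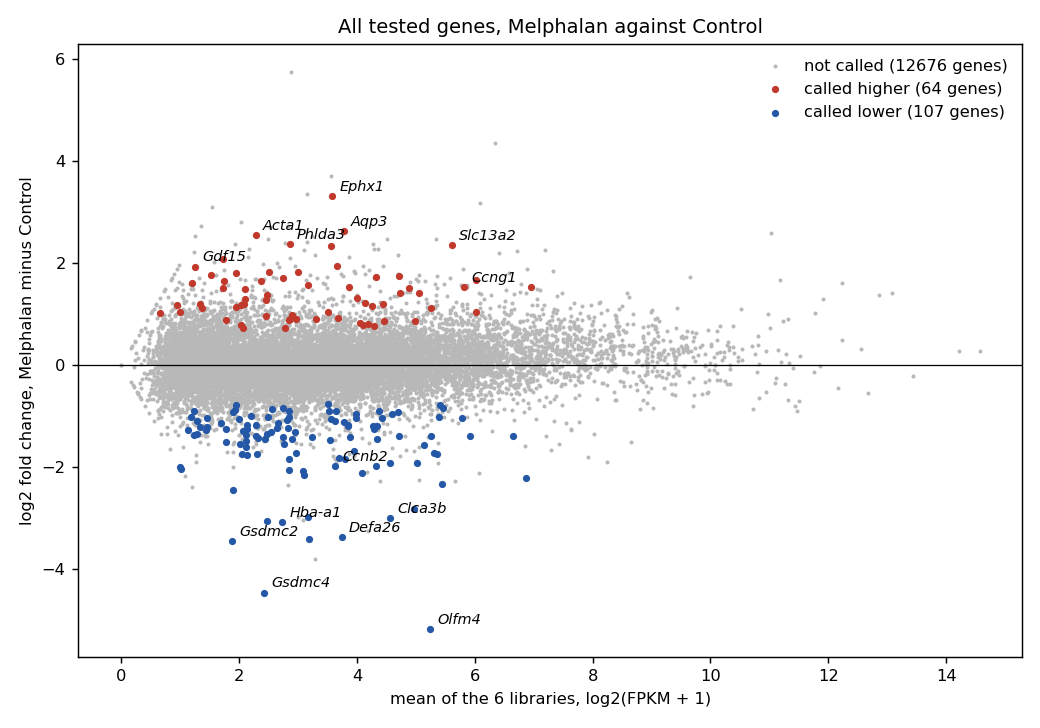
Log2 fold change of Melphalan minus Control (vertical axis) against the mean log2(FPKM + 1) of the 6 libraries (horizontal axis) for the 12847 tested genes, with the 64 genes called higher in red, the 107 called lower in blue and the rest in grey. Olfm4 lies lowest at -5.18, and Ephx1 is the highest called gene at 3.31, while a few grey genes above it were not called.

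How many genes passed depended on the libraries and settings used. The direction of the 171 did not turn in any fit that tested them. The groups lay apart in all 171, so leaving out a library or changing the pseudocount or filter could not turn it. With the replicate number as a block, 73 genes passed, 68 of them among the 171. With no filter on level, 63 genes passed, 57 of them among the 171. A fit on the 6 libraries alone called 4 genes, 3 of them among the 171, and limma with a variance factor for each group called 29, all of them among the 171. Without Control 1 the fit called 9 genes, without Control 2 it called 18, and without Control 3 it called 420. Without Melphalan 1 it called 123, without Melphalan 2 it called 409, and without Melphalan 3 it called 38. Calls that held whichever of the 6 libraries was left out numbered 8: Aqp3, Ephx1 and Phlda3, which rose, and Olfm4, Gsdmc2, Gsdmc3, Gsdmc4 and Defa26, which fell. All 8 also passed with the block and with the group variance factors, and Gsdmc4, Gsdmc2 and Defa26 passed in the fit on the 6 libraries. Every other called gene lost its call when at least 1 of the 6 libraries was left out, and each group of genes is given with the number that stayed.

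Of the p53 targets that act in cell cycle arrest, repair and feedback, 8 of 21 tested genes rose and none fell, against 0.498% of all genes called higher; 17 were fitted above 0, with a median of 0.73. Phlda3, a p53 target that competes with AKT for membrane lipids (ENSMUSG00000041801, chromosome 1, 135766119 to 135769136, plus strand), was at 3.28, 2.05 and 1.5 FPKM in Control, against 20.9, 13.7 and 13 in Melphalan (log2 change 2.37, SE 0.29, adjusted p = 0.00786). Ephx1, the microsomal epoxide hydrolase, which is also a drug-metabolizing enzyme (ENSMUSG00000038776, chromosome 1, 180976210 to 181020904, minus strand), was at 3.46, 3.8 and 1.58 FPKM without the drug and 33.2, 23.4 and 63.3 with it (log2 change 3.31, SE 0.42, adjusted p = 0.00903). The 3 drug libraries of both genes lay above all Control libraries with no overlap, and Melphalan 3 was the highest for Ephx1. Gdf15, a secreted stress cytokine that acts on appetite through the hindbrain (chromosome 8, 70629393 to 70632456, minus strand), was at 0.0564, 0.439 and 0.2 in the Control libraries and 4.38, 2.68 and 4.06 FPKM in the Melphalan libraries (log2 change 1.93, SE 0.26, adjusted p = 0.0115). With a pseudocount of 0.1 FPKM its change was 3.67. Ccng1, cyclin G1, a feedback regulator of p53 (chromosome 11, 40748552 to 40755311, minus strand), was at 37.3, 31.6 and 28.5 FPKM in Control, against 111, 70.8 and 109 in Melphalan (log2 change 1.53, SE 0.24, adjusted p = 0.0176), with Melphalan 2 the lowest of the drug libraries.

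The other 4 called p53 targets were as follows. Sesn2, sestrin 2, which restrains mTORC1 under stress, was at 1.7, 1.91 and 1.19 FPKM without the drug and 4.01, 5.39 and 4.81 with it (log2 change 1.14, SE 0.19, adjusted p = 0.0187). Plk2, a polo-like kinase induced by stress, was at 1.61, 1.16 and 1.98 in the Control libraries and 6.31, 4.55 and 8.25 FPKM in the Melphalan libraries (adjusted p = 0.0207). Plk3, its stress-induced relative, was at 2.17, 1.25 and 1.83 FPKM in Control, against 6.24, 5.23 and 5.59 in Melphalan (adjusted p = 0.0241). Zmat3, an RNA-binding p53 target, was at 2.53, 1.99 and 2.3 FPKM without the drug and 4.43, 4.17 and 4.7 with it (adjusted p = 0.0487). In each of the 4 the ranges of the groups were apart. With the block, Plk3 and Zmat3 lost their calls (adjusted p = 0.0537 and 0.0861). Of the 8 called targets 2 stayed called without Control 1, 3 without Control 2, 7 without Control 3, 6 without Melphalan 1, 8 without Melphalan 2 and 3 without Melphalan 3.

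The p53 targets most often measured lay the same way and missed the threshold. Cdkn1a, the cyclin-dependent kinase inhibitor p21, was at 79.3, 66.7 and 111 in the Control libraries and 263, 129 and 261 FPKM in the Melphalan libraries (log2 change 1.29, SE 0.29, adjusted p = 0.0573). The groups did not overlap, and Melphalan 2 lay close to Control 3 and far below the other drug libraries. Mdm2, the ubiquitin ligase that degrades p53, was at 16.3, 15.8 and 21.1 FPKM in Control, against 25.9, 24.1 and 25.8 in Melphalan (adjusted p = 0.139), with the 3 drug libraries close to each other and above Control.

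Genes of cell death showed no call. Among 12 p53 targets of cell death 10 were fitted above 0 with a median of 0.23, and 3 had an unadjusted p under 0.05, all higher. Bax, which opens the outer mitochondrial membrane, was at 16.1, 28.3 and 28.2 FPKM without the drug and 49.5, 77.7 and 83.6 with it (log2 change 1.51, SE 0.38, adjusted p = 0.0798), with the groups apart. Bbc3, the BH3-only protein PUMA, was at 2.03, 1.95 and 2.39 in the Control libraries and 2.59, 10.4 and 6.6 FPKM in the Melphalan libraries (adjusted p = 0.191), and its Melphalan 1 value lay near Control. Among 29 genes of the BCL2 family and the caspases the median was 0.13, and -0.02 after quantile normalization, with 18 above and 11 below 0, and 4 higher and 3 lower at an unadjusted p under 0.05. Of these, Casp2, the caspase that acts in the response to DNA damage and to failed mitosis, was at 15.6, 13.2 and 12.8 FPKM in Control, against 6.6, 9.52 and 8.38 in Melphalan (adjusted p = 0.0945), lower in every drug library. After quantile normalization 1 gene of this list was called lower.

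**Figure D2:**
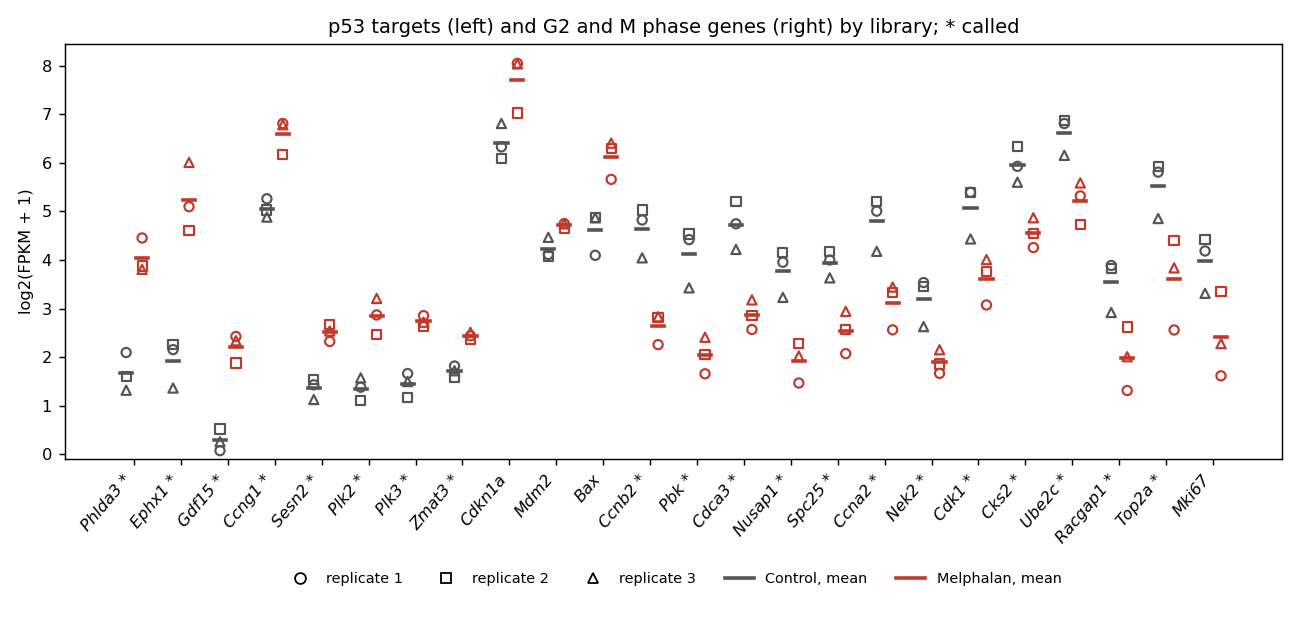
Log2(FPKM + 1) of 11 p53 targets (Phlda3 to Bax) and 13 genes of G2 and M phase (Ccnb2 to Mki67) in each library; grey symbols are Control, red symbols Melphalan, bars the means of 3 libraries, and a star marks a called gene. The drug libraries lie above Control for the p53 targets and below it for the mitotic genes, except Mki67 in Melphalan 2, with Control 3 (grey triangles) lowest of the Control libraries for the mitotic ones.

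Genes of G2 and mitosis lay lower without exception. All 40 tested members of the list were fitted below 0, with a median of -1.25, and 12 fell, against 0.833% of all genes called lower. In 27 of the 40 every drug library was below every Control library, against 10.7% of all genes. Summed over the list, Control libraries reached 729, 816 and 417 FPKM and Melphalan libraries 167, 248 and 263. Control 3 thus stood between the other Control libraries and the drug libraries.

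Regulators of mitotic entry were among the genes that fell. Ccnb2, cyclin B2, the partner of Cdk1 (ENSMUSG00000032218, chromosome 9, 70407692 to 70421547, minus strand), was at 27.3, 31.6 and 15.5 FPKM without the drug and 3.79, 6.07 and 6.13 with it (log2 change -1.99, SE 0.25, adjusted p = 0.00903). Cdk1, the kinase that starts mitosis (chromosome 10, 69335146 to 69352938, minus strand), was at 41, 41 and 20.6 in the Control libraries and 7.43, 12.6 and 15.1 FPKM in the Melphalan libraries (log2 change -1.45, SE 0.29, adjusted p = 0.0373). Ccna2, cyclin A2, was at 31.1, 35.7 and 17.1 FPKM in Control, against 4.91, 9.03 and 9.88 in Melphalan (adjusted p = 0.0207). Cks2, a small subunit that binds Cdk1, was at 59.8, 79.4 and 47.5 FPKM without the drug and 18.1, 22.4 and 28.2 with it (adjusted p = 0.0397). In these 4 genes Melphalan 1 was the lowest library. The kinase Pbk, active in mitotic cells, was at 20.4, 22.2 and 9.76 in the Control libraries and 2.16, 3.17 and 4.32 FPKM in the Melphalan libraries (log2 change -2.08, SE 0.3, adjusted p = 0.0136). Cdca3, a mitotic regulator whose level follows the cell cycle, was at 25.8, 35.9 and 17.6 FPKM in Control, against 4.94, 6.27 and 8.06 in Melphalan (adjusted p = 0.0156).

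Genes of the spindle and of chromosome separation fell with them. Nusap1, a spindle microtubule protein, was at 14.5, 16.8 and 8.39 FPKM without the drug and 1.77, 3.87 and 3.07 with it (adjusted p = 0.0176). Spc25, a kinetochore subunit, was at 15, 17.1 and 11.4 in the Control libraries and 3.21, 4.95 and 6.69 FPKM in the Melphalan libraries (adjusted p = 0.0187). Nek2, a centrosome kinase, was at 10.6, 9.91 and 5.19 FPKM in Control, against 2.18, 2.63 and 3.45 in Melphalan (adjusted p = 0.0239). Racgap1, which builds the central spindle, was at 13.8, 13.2 and 6.57 FPKM without the drug and 1.49, 5.16 and 3.03 with it (adjusted p = 0.0406). Their Control 3 values were the lowest of Control and still above the drug libraries. Ube2c, the ubiquitin-conjugating enzyme of the anaphase-promoting complex, was at 111, 116 and 70.1 in the Control libraries and 38.9, 25.6 and 47 FPKM in the Melphalan libraries (adjusted p = 0.0405). Top2a, which untangles chromosomes, was at 55, 59.6 and 27.9 FPKM in Control, against 4.9, 20.1 and 13.3 in Melphalan (adjusted p = 0.0477). Mki67, the proliferation marker, was at 17.2, 20.4 and 8.95 FPKM without the drug and 2.07, 9.19 and 3.86 with it and missed the threshold (adjusted p = 0.0786), with its Melphalan 2 value just above Control 3.

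With the block, 6 of the 12 lost their calls: Nek2, Cdk1, Cks2, Ube2c, Racgap1 and Top2a (adjusted p = 0.0595, 0.0723, 0.065, 0.0719, 0.072 and 0.0786). Over the whole list, none was called without Control 1, 1 without Control 2, 34 without Control 3, 6 without Melphalan 1, 21 without Melphalan 2 and 5 without Melphalan 3. The list median ran from -1.61 without Control 3 to -1.03 without Control 2. A further 16 called genes of the cell cycle on no list were picked out after their values were seen. Among them Melk, a kinase of dividing cells, was at 10, 9.6 and 5.23 in the Control libraries and 1.51, 1.4 and 2.25 FPKM in the Melphalan libraries (adjusted p = 0.00996). Hmgb2, a chromatin protein abundant in dividing cells, was at 73, 123 and 45.5 FPKM in Control, against 17, 27.5 and 21.3 in Melphalan (adjusted p = 0.0226). The others were Ska1, Ska3, Sgo1, Mad2l1, Cenpl, Cenpp, Mis18a, Ncapd3, Bora, Iqgap3, Depdc1b, Cdkn3, Cip2a and E2f8, all of which fell. With the block 6 of the 16 stayed called, and 0, 2, 16, 7, 14 and 3 did without Control 1 to 3 and Melphalan 1 to 3 in turn.

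The promoters of these genes were read because the mitotic members lay lower together. Promoters of late cell cycle genes are known for the CHR element TTTGAA, bound by complexes with the MuvB core, and for the CCAAT box, bound by NF-Y. Each promoter was the 250 bases before the RefSeq start (build GRCm38.p6), searched on both strands, and 33 of the 40 list members and 10 of the 12 called genes had an entry. Of 35 entries for the list (some genes have several), 29 (82.9%) held CCAAT on either strand (ATTGG where it is on the other strand), beside 33.8% of all 32851 promoter entries. TTTGAA on either strand (or TTCAAA) was in 11 of the 35 (31.4%), beside 16% of all entries. The S phase list, whose median change was -0.52, held CCAAT in 22 of 40 entries (55%) and TTTGAA in 4 (10%). CCAAT was also in 13 of 21 entries (61.9%) of the p53 arrest list, whose median was 0.73. It was in 14 of 22 clock gene entries (63.6%) and in 3 of 12 (25%) of the p53 cell death list. A CCAAT share above that of all entries was thus not particular to lists that lay lower. TTTGAA was in 1 of the 21 entries (4.76%) of the p53 arrest list and in 0 of the 22 clock gene entries. It was in 3 of 12 (25%) of the p53 cell death list, whose median was 0.23. A TTTGAA share above the 16% of all entries was thus not particular to lists that lay lower either. A match is a run of letters and not a bound site. Of the 10 called genes with an entry, the 4 that held both motifs are shown 5′ to 3′ on the strand of the gene, with the matches in capitals; no match of one motif overlapped a match of the other.
Ccnb2 (chr9:70421555-70421804, minus strand): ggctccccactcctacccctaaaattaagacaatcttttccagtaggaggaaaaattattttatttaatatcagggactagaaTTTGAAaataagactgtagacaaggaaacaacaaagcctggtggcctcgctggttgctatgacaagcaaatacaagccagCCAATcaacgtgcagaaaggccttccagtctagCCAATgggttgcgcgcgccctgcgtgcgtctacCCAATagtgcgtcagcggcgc
Cdk1 (chr10:69352913-69353162, minus strand): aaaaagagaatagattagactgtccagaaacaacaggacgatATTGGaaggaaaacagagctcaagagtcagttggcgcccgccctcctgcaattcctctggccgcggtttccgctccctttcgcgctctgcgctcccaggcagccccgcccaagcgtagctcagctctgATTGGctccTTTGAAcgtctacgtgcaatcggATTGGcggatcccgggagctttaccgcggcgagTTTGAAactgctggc
Top2a (chr11:99024190-99024439, minus strand): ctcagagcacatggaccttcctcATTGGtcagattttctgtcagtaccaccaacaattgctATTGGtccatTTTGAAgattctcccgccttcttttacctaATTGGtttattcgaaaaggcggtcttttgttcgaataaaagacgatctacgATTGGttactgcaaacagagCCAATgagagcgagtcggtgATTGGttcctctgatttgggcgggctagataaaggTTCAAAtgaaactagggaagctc
Ube2c (chr2:164769679-164769928, plus strand): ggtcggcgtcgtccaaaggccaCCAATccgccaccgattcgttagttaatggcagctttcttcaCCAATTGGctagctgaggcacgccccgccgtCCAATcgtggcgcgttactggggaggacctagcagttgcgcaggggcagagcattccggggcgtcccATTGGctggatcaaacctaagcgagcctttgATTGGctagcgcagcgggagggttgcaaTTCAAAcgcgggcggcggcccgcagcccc
The CCAAT match nearest the start ended 16 bases before it in Ccnb2, 43 in Cdk1, 53 in Top2a and 52 in Ube2c. The nearest TTTGAA match ended 161, 9, 17 and 23 bases before it. No entry of either p53 list held the full p53 consensus with no spacer in this window, and 0.00913% of all entries did.

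Genes of DNA replication lay lower by a smaller median. Of 41 tested S phase genes 40 were fitted below 0, with a median of -0.52, and 1 fell. That gene, Prim1, the small subunit of DNA primase, was at 8.79, 10.9 and 6.55 FPKM without the drug and 1.96, 4.99 and 2.77 with it (adjusted p = 0.0459, and 0.0627 with the block). Rfc4, a subunit of the clamp loader, was at 31.4, 20.3 and 13.4 in the Control libraries and 8.89, 6.01 and 3.6 FPKM in the Melphalan libraries (adjusted p = 0.0501, and 0.0484 with the block). Tyms, thymidylate synthase, was at 17.3, 23.2 and 9.68 FPKM in Control, against 1.47, 8.31 and 6 in Melphalan (adjusted p = 0.1). Both had ranges apart and missed the threshold without the block. Among 34 tested genes of the Fanconi pathway and crosslink repair, the route that unhooks lesions such as those of melphalan, 0 were called, and 28 were fitted below 0, with a median of -0.48. At an unadjusted p under 0.05, 11 of them were lower and 1 higher. Dclre1a, a crosslink repair nuclease on no list and chosen after its values were seen, fell. It was at 4.69, 3.88 and 3.98 FPKM in Control, against 1.92, 1.78 and 1.73 in Melphalan (adjusted p = 0.0332, and 0.072 with the block). With 1 library left out its adjusted p ran from 0.0375 to 0.154. Chek1, the checkpoint kinase of stalled forks, was at 3.91, 4.11 and 1.78 FPKM without the drug and 0.614, 1.58 and 0.784 with it (adjusted p = 0.0893). Fancl, the ubiquitin ligase of the Fanconi core, was at 3.52, 4.97 and 1.96 in the Control libraries and 1.58, 1.59 and 1.12 FPKM in the Melphalan libraries (adjusted p = 0.105). In both the groups were apart. Most genes of this list lay under 5 FPKM in each of the 6 libraries, and over the members with a mean of 5 FPKM or more the median was 0.53. Without Control 3, 4 genes of each list were called lower.

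A marker of the crypt base was among the genes that fell furthest. Olfm4, a secreted glycoprotein that marks active stem cells (ENSMUSG00000022026, chromosome 14, 79984081 to 80023139, plus strand), was at 399, 361 and 79.5 FPKM in Control, against 7.16, 2.37 and 7.99 in Melphalan (log2 change -5.18, SE 0.59, adjusted p = 0.00744). The 3 drug libraries lay below 8 FPKM, while the Control libraries spread widely, with Control 3 lowest. Myb, a transcription factor that progenitors need (chromosome 10, 21124935 to 21160984, minus strand), was at 17.5, 17.9 and 8.07 FPKM without the drug and 2.38, 2.46 and 2.72 with it (log2 change -2.06, SE 0.28, adjusted p = 0.0115), with the drug libraries close together. Of 24 tested genes of stem and progenitor cells these 2 fell and none rose. Of the 24, 17 were fitted below 0 and 7 above it, and the median was -0.23. At an unadjusted p under 0.05, 9 were lower and 1 higher. The 3 uncalled genes given next had the smallest p. Prom1, a membrane protein of stem cells and progenitors, was at 49.7, 76.7 and 43.3 in the Control libraries and 23.3, 7.09 and 25.7 FPKM in the Melphalan libraries (adjusted p = 0.0696). Cdca7, a chromatin factor of dividing crypt cells, was at 22.8, 34.4 and 16 FPKM in Control, against 12, 10.1 and 8.91 in Melphalan (adjusted p = 0.0791). Slc12a2, the chloride importer of the crypt, was at 44.6, 36.6 and 12.4 FPKM without the drug and 9.83, 4.07 and 10 with it (adjusted p = 0.0896). All 3 lay lower in every drug library and missed the threshold. Lgr5, the receptor that defines the stem cell, did not reach the filter. Its values were 0.747, 0.747 and 0.856 in the Control libraries and 0.00991, 0.145 and 0.768 FPKM in the Melphalan libraries.

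The gasdermin C genes fell to 0 or near it. Gasdermins are pore-forming proteins, and the mouse C genes lie in a cluster on chromosome 15. Gsdmc4 (ENSMUSG00000055748, chromosome 15, 63891264 to 63912297, minus strand) was at 36.3, 29.2 and 13.4 FPKM in Control, against 0, 0.048 and 0.406 in Melphalan (log2 change -4.47, SE 0.4, adjusted p = 0.00237). Gsdmc2 (chromosome 15, 63824346 to 63845177, minus strand) was at 14.2, 13.1 and 7.59 FPKM without the drug and 0, 0.209 and 0.129 with it (log2 change -3.46, SE 0.34, adjusted p = 0.00358). Gsdmc3 (chromosome 15, 63857724 to 63878558, minus strand) had values of 3.9, 2.78 and 2.52 in the Control libraries and 0, 0 and 0 FPKM in the Melphalan libraries (adjusted p = 0.00536), and no fold is given against a group listed at 0. The Control libraries stood well above the drug libraries in all 3. With a pseudocount of 0.1 FPKM the changes of Gsdmc4 and Gsdmc2 were -6.96 and -5.88. Of the 50-base windows of their transcripts, 39% of Gsdmc4, 48.5% of Gsdmc2 and 46.9% of Gsdmc3 occur in another gene of the cluster, so the split of reads among them is uncertain. The 2 other gasdermins that passed the filter lay the other way and were not called. Gsdmd, which the inflammatory caspases cleave, was at 119, 137 and 214 FPKM in Control, against 346, 200 and 293 in Melphalan (adjusted p = 0.154). Gsdme, a substrate of caspase 3, was at 9.49, 6.56 and 6.29 FPKM without the drug and 8.45, 8.16 and 21.7 with it (adjusted p = 0.482).

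Fgfbp1, a carrier that frees growth factors from the matrix, fell as well. It was at 7.98, 13.3 and 4.14 in the Control libraries and 0.945, 0.278 and 0.617 FPKM in the Melphalan libraries (log2 change -2.45, SE 0.4, adjusted p = 0.0187). Of the 6 called genes Olfm4, Myb, Gsdmc4, Gsdmc2, Gsdmc3 and Fgfbp1, all stayed called with the block and with the group variance factors. Without Control 1 or Control 2, Myb and Fgfbp1 lost their calls, and without Melphalan 3 Fgfbp1 did.

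**Figure D3:**
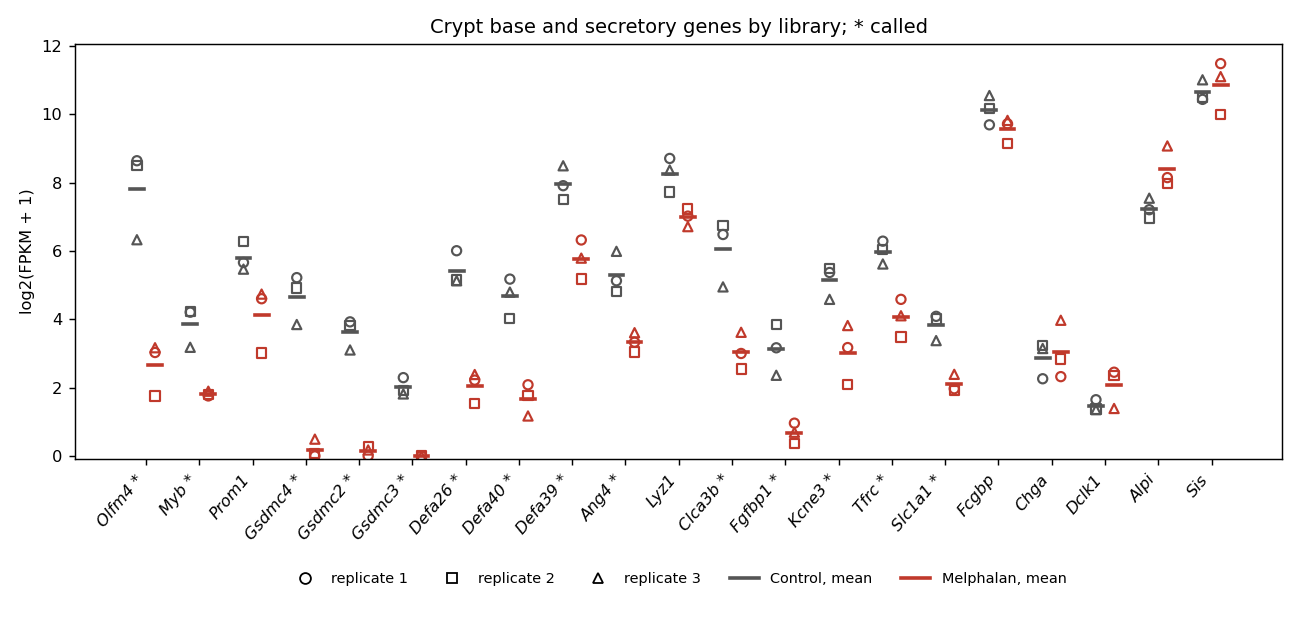
Log2(FPKM + 1) of 21 genes of the crypt base, the secretory cells and the enterocyte in each library; grey symbols are Control, red symbols Melphalan, bars the means of 3 libraries, and a star marks a called gene. Olfm4, Gsdmc4 and Gsdmc2 show the widest gaps, and Gsdmc3, the defensins and Ang4 narrower ones, while Fcgbp, Chga, Dclk1 and Sis overlap between the groups.

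Paneth cell products lay lower and few passed singly. Of 22 tested alpha-defensins, the antimicrobial peptides of Paneth granules, 19 were fitted below 0 with a median of -1.52, and 3 fell. In 15 of the 22 every drug library lay below every Control library, against 10.7% of all genes. Defa26 (ENSMUSG00000060070, chromosome 8, 21618183 to 21618972, plus strand) was at 63.4, 34.5 and 34 FPKM in Control, against 3.66, 1.91 and 4.22 in Melphalan (log2 change -3.38, SE 0.41, adjusted p = 0.00786). Defa40 was at 35.2, 15.4 and 26.8 FPKM without the drug and 3.24, 2.42 and 1.25 with it (adjusted p = 0.0176). Defa39 was at 240, 181 and 360 in the Control libraries and 79.1, 35.2 and 54.4 FPKM in the Melphalan libraries (adjusted p = 0.0394, and 0.0826 with the block). In each of the 3 the drug libraries stood well below all Control libraries. Of the 50-base windows of their transcripts 33.4%, 34.5% and 28.4% occur in another defensin gene, so these values are uncertain too. Of the defensins not called Defa30 had the smallest p, at 616, 329 and 450 FPKM in Control, against 154, 91.2 and 150 in Melphalan (adjusted p = 0.064).

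Of 10 other Paneth and Reg genes 1 fell. Ang4, an antimicrobial ribonuclease, was at 34, 27.1 and 62.6 FPKM without the drug and 9.06, 7.23 and 11.2 with it (log2 change -1.99, SE 0.37, adjusted p = 0.0292). Lyz1, the Paneth cell lysozyme, was at 418, 211 and 330 in the Control libraries and 129, 149 and 104 FPKM in the Melphalan libraries (adjusted p = 0.115), lower in each drug library. Itln1, a lectin of Paneth and goblet cells, was at 102, 94.7 and 152 FPKM in Control, against 59.9, 45.3 and 76.8 in Melphalan (adjusted p = 0.216). The antimicrobial lectin Reg3b, chosen after its values were seen, ran from 3941 to 25676 FPKM in Control and from 1779 to 10514 in Melphalan, so that the groups overlapped.

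Clca3b, of the family of secreted calcium-activated chloride channel regulators, fell and was the 1 gene of 6 in that family to do so. It was at 88.5, 107 and 29.9 FPKM without the drug and 7, 4.84 and 11.3 with it (log2 change -3.01, SE 0.43, adjusted p = 0.0136). Clca1, the goblet cell member, was at 160, 118 and 104 in the Control libraries and 81.9, 51.7 and 113 FPKM in the Melphalan libraries (adjusted p = 0.51), with Melphalan 3 inside the Control range. Without Control 1, 1 of the 5 called genes Defa26, Defa40, Defa39, Ang4 and Clca3b stayed called; 2 did without Control 2, 4 without Control 3, 4 without Melphalan 1, 4 without Melphalan 2 and 2 without Melphalan 3.

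Lists of the other secretory cells held no called gene. All 14 tested goblet cell genes were fitted below 0, with a median of -0.62, and -0.35 without Melphalan 2, and 2 had an unadjusted p under 0.05. Galnt12, which starts mucin glycosylation, was at 7.54, 8.53 and 5.42 FPKM in Control, against 3.32, 3.41 and 3.71 in Melphalan (adjusted p = 0.09). Klk1, a kallikrein, was at 25.4, 39.4 and 29.3 FPKM without the drug and 16.9, 6.32 and 16.3 with it (adjusted p = 0.139). Muc2, the gel-forming mucin, was at 3.52, 0.887 and 0.182 in the Control libraries and 0.291, 0.205 and 0.44 FPKM in the Melphalan libraries, low in all 6 libraries and highest in Control 1. Fcgbp, another secreted component of mucus, chosen after its values were seen, was at 828, 1147 and 1501 FPKM in Control, against 845, 568 and 906 in Melphalan. Of 19 enteroendocrine genes 13 were fitted below 0 (median -0.31), 4 of them with an unadjusted p under 0.05. Neurod1, a transcription factor of that lineage, was at 1.37, 1.53 and 1.54 FPKM without the drug and 0.753, 0.19 and 0.731 with it (adjusted p = 0.108), lower in every drug library. Chga, chromogranin A, was at 3.79, 8.39 and 7.85 in the Control libraries and 4, 6.16 and 14.7 FPKM in the Melphalan libraries, with ranges that overlapped. Of 11 tuft cell genes 6 were fitted above 0 and 5 below, with 1 in each direction at an unadjusted p under 0.05. Ltc4s, leukotriene C4 synthase, was at 9.15, 5.77 and 17.4 FPKM in Control, against 36.4, 30 and 26.2 in Melphalan (adjusted p = 0.207), higher in all drug libraries. Dclk1, the usual tuft marker, was at 2.13, 1.59 and 1.56 FPKM without the drug and 4.47, 4.1 and 1.62 with it (adjusted p = 0.288), with Melphalan 3 inside the Control range.

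Enterocyte genes lay higher as groups and rarely passed. All 26 brush border genes, the enzymes and structural proteins of the absorptive surface, were fitted above 0, with a median of 0.68 and 0 called by limma, where 13 of the 26 had an unadjusted p under 0.05. Without Control 3 and without Melphalan 2, 1 of them was called higher. Alpi, intestinal alkaline phosphatase, was at 147, 124 and 186 in the Control libraries and 283, 252 and 539 FPKM in the Melphalan libraries (log2 change 1.16, SE 0.31, adjusted p = 0.0901). Ace, the angiotensin-converting enzyme, was at 212, 201 and 348 FPKM in Control, against 390, 444 and 576 in Melphalan (adjusted p = 0.104). Espn, which bundles actin in microvilli, was at 70.9, 55 and 82.8 FPKM without the drug and 116, 95.7 and 168 with it (adjusted p = 0.105). The groups did not overlap in these 3. Sis, sucrase-isomaltase, was at 1389, 1437 and 2066 in the Control libraries and 2871, 1026 and 2204 FPKM in the Melphalan libraries (adjusted p = 0.78), with Melphalan 2 below all Control libraries. The highest Control library was Control 3 for all 4 genes, and without it the list median was 0.92. Quantile normalization lowered it to 0.45.

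Lipid handling followed the same order. Of 26 genes of lipid absorption and chylomicron assembly 25 were fitted above 0, with a median of 0.57, and 1 rose. Scarb1, the receptor that takes up cholesterol from lipoproteins, was at 0.756, 1.06 and 1.09 FPKM in Control, against 4.14, 3.69 and 6.23 in Melphalan (log2 change 1.51, SE 0.28, adjusted p = 0.0285). Abca1, a cholesterol exporter, was at 7.65, 7.01 and 8.07 FPKM without the drug and 14.4, 15.8 and 14.2 with it (adjusted p = 0.0922). Creb3l3, a transcription factor of apolipoprotein genes, was at 104, 96 and 139 in the Control libraries and 230, 150 and 250 FPKM in the Melphalan libraries (adjusted p = 0.103), both with ranges apart. Without Melphalan 2, 4 genes of the list were called. In fatty acid oxidation, 19 of 24 genes were fitted above 0 (median 0.48) and 0 were called, 8 with an unadjusted p under 0.05. Acaa1b, a peroxisomal thiolase, was at 19.3, 7.57 and 27.1 FPKM in Control, against 48.4, 41.1 and 67.3 in Melphalan (adjusted p = 0.1). Cholesterol and fatty acid synthesis lay the other way, with 21 of 32 genes below 0, a median of -0.28 and 0 called, 8 of the 21 with an unadjusted p under 0.05. Idi1, isopentenyl-diphosphate isomerase, was at 34.8, 35.3 and 17.1 FPKM without the drug and 4.14, 10.8 and 8.52 with it (adjusted p = 0.0798), lower in every drug library. In vitamin A handling 10 of 13 genes were above 0 (median 0.26) and 2 had an unadjusted p under 0.05. Rbp2, the retinol carrier of the enterocyte, was at 1564, 2432 and 5629 in the Control libraries and 8527, 5738 and 12099 FPKM in the Melphalan libraries (adjusted p = 0.237).

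Several enzymes on no list rose. Acox2, a peroxisomal oxidase of branched fatty acids and bile acid precursors, was at 0.809, 0.363 and 0.712 FPKM in Control, against 7.52, 3.36 and 7.37 in Melphalan (log2 change 2.07, SE 0.33, adjusted p = 0.0187). Aldh4a1, a mitochondrial enzyme of proline breakdown, was at 15.1, 14.5 and 10.9 FPKM without the drug and 46.6, 30.8 and 71.9 with it (log2 change 1.74, SE 0.27, adjusted p = 0.0176). Lpcat4, which remodels phospholipids, was at 3.56, 2.73 and 3.59 in the Control libraries and 11.4, 12.7 and 19.4 FPKM in the Melphalan libraries (adjusted p = 0.018). Ptgr1, a reductase of prostaglandins and leukotrienes, was at 33.1, 24.6 and 54.7 FPKM in Control, against 95, 98.4 and 158 in Melphalan (adjusted p = 0.0397, and 0.0795 with the block). In all 4 the highest library was Melphalan 3 or Melphalan 1.

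Genes of drug handling were mostly fitted above 0. Of 22 tested glutathione transferases, enzymes that join glutathione to electrophiles such as melphalan, 19 were fitted above 0, with a median of 0.84, and 1 rose. Gsta3 (chromosome 1, 21240589 to 21265661, plus strand) was at 3.37, 3.52 and 6.21 FPKM without the drug and 33.2, 16.1 and 30.2 with it (log2 change 2.33, SE 0.36, adjusted p = 0.0176). Its relative Gsta2 was at 0.131, 0.402 and 1.07 in the Control libraries and 6.75, 1.75 and 9.24 FPKM in the Melphalan libraries (adjusted p = 0.0945). Gsta1, another of this class, was at 24.3, 52.3 and 82.6 FPKM in Control, against 248, 113 and 416 in Melphalan (adjusted p = 0.102). Both were higher in every drug library and not called. None of the 50-base windows of the Gsta3 transcript occurs in Gsta1, Gsta2 or Gsta4. Of 34 other enzymes of drug metabolism 30 were above 0 (median 0.46), and Ephx1, given above, was the 1 called gene. Akr1b8, an aldo-keto reductase, was at 2.99, 3.76 and 4.26 FPKM without the drug and 18.6, 8.68 and 44.7 with it (adjusted p = 0.0512). Por, the electron donor of the cytochromes P450, was at 28.2, 20.1 and 28.1 in the Control libraries and 57.9, 49.1 and 83.2 FPKM in the Melphalan libraries (adjusted p = 0.0839). Of 8 efflux pumps Abcb1b, one of the mouse P-glycoproteins, rose. It was at 0.346, 0.385 and 0.109 FPKM in Control, against 2.48, 2.32 and 1.08 in Melphalan (log2 change 1.18, SE 0.25, adjusted p = 0.0441, and adjusted p = 0.0826 with the block). With a pseudocount of 0.1 FPKM its change was 2.45 and its call was lost (adjusted p = 0.06). Its paralog Abcb1a was far higher and not called, at 28.7, 18 and 42.3 FPKM without the drug and 89.4, 54.5 and 79.1 with it (adjusted p = 0.0891). Of 15 antioxidant targets of NRF2 10 were above 0, with a median of 0.31, and 0.03 after quantile normalization. None was called by limma, and 4 had an unadjusted p under 0.05.

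Of the 7 called genes Scarb1, Acox2, Aldh4a1, Lpcat4, Ptgr1, Gsta3 and Abcb1b, none stayed called without Control 1 or without Control 2, 6 did without Control 3, 4 without Melphalan 1, 6 without Melphalan 2 and 2 without Melphalan 3.

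Carriers of sugars and amino acids lay higher too, with some exceptions. Of 18 genes of sugar transport and metabolism 14 were above 0 (median 0.59) and 0 were called, with 7 higher and 1 lower at an unadjusted p under 0.05. Slc5a4b, of the family of sodium-coupled sugar carriers, was at 27.8, 12.5 and 46.5 in the Control libraries and 64.2, 85.8 and 111 FPKM in the Melphalan libraries (adjusted p = 0.0512). Of 19 carriers of amino acids and peptides 13 were above 0 (median 0.51). Slc15a1, the peptide importer of the brush border, was at 116, 83.5 and 162 FPKM in Control, against 200, 193 and 258 in Melphalan (adjusted p = 0.0893). Slc1a1, a carrier of glutamate and aspartate, was the 1 called gene of the list and fell, at 16, 15.1 and 9.39 FPKM without the drug and 2.91, 2.8 and 4.24 with it (log2 change -1.73, SE 0.25, adjusted p = 0.0144).

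Water and ion transport held changes in both directions. Aqp3, a channel for water and glycerol (ENSMUSG00000028435, chromosome 4, 41092722 to 41098183, minus strand), was at 4.85, 3.81 and 5.04 in the Control libraries and 28.2, 25.2 and 50.1 FPKM in the Melphalan libraries (log2 change 2.62, SE 0.32, adjusted p = 0.00786). Its Control libraries lay between 3.81 and 5.04 FPKM, far below the lowest drug library, and it was the 1 gene of 6 aquaporins called. Slc13a2, the citrate carrier of the enterocyte, was at 25, 10.9 and 31.8 FPKM in Control, against 75.3, 112 and 154 in Melphalan (log2 change 2.35, SE 0.4, adjusted p = 0.022). Kcne3, the subunit that opens the Kcnq1 potassium channel for chloride secretion in the crypt, fell and was at 40.4, 43.9 and 23 FPKM without the drug and 8.02, 3.23 and 13.1 with it (log2 change -2.12, SE 0.39, adjusted p = 0.0258). Kcnq1 itself was at 13.9, 13.2 and 5.25 in the Control libraries and 2.76, 2.1 and 4 FPKM in the Melphalan libraries, and missed the threshold (adjusted p = 0.0501). With the block Slc13a2 and Kcne3 lost their calls (adjusted p = 0.0595 and 0.0595). Of the 4 called carriers and channels Aqp3, Slc13a2, Kcne3 and Slc1a1, Aqp3 alone stayed called without Control 1 and without Control 2. All 4 were called without Control 3 and without Melphalan 2, and 3 without Melphalan 1 and without Melphalan 3. Of 15 tight junction genes 0 were called, with a median of 0.05 and 2 lower at an unadjusted p under 0.05.

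**Figure D4:**
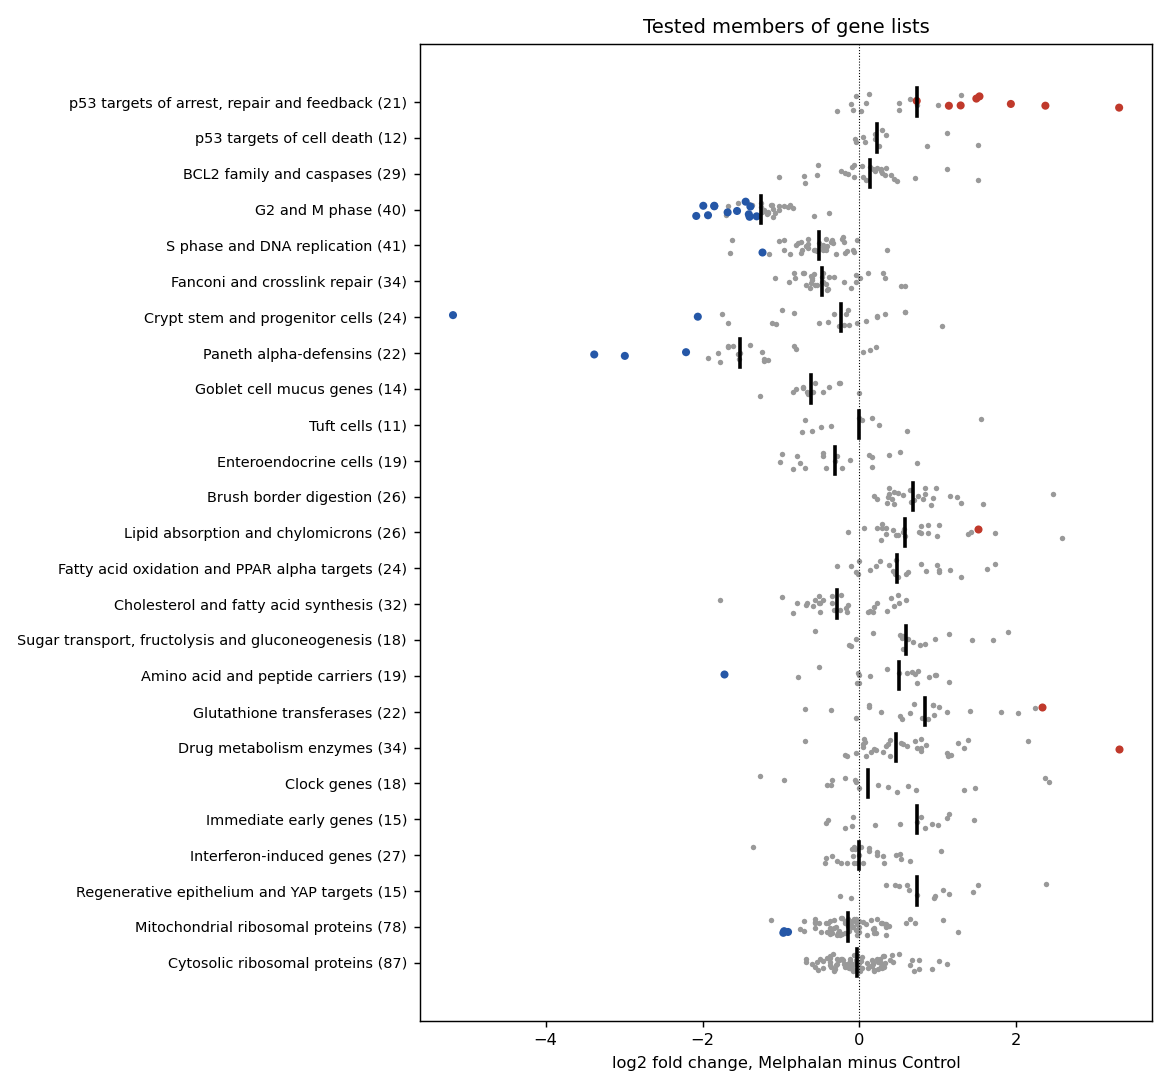
Log2 fold change (horizontal axis, Melphalan minus Control) of the tested members of 25 gene lists, with the number tested in brackets; red and blue points are genes called higher and lower, grey points were not called, and black bars are list medians. The G2 and M phase list lies wholly below 0 and the brush border list wholly above it, beside a median of 0.03 over all tested genes.

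Stress and signalling lists held no called gene. Clock genes, which follow the hour of collection, were 9 above and 9 below 0, with 6 higher and 2 lower at an unadjusted p under 0.05. Dbp, an output factor of the clock, was at 0.772, 0.505 and 0.78 FPKM in Control, against 7.72, 8.51 and 6.85 in Melphalan (log2 change 2.37, SE 0.57, adjusted p = 0.0696). Nr1d2, a repressor of the clock, was at 3.95, 3.26 and 6.06 FPKM without the drug and 15.2, 9.82 and 12.3 with it (adjusted p = 0.0765). Tef, another output factor, was at 8.01, 2.63 and 4.65 in the Control libraries and 18.7, 13.2 and 13 FPKM in the Melphalan libraries (adjusted p = 0.0786). Arntl, the clock activator BMAL1, chosen after its values were seen, was at 17.8, 20 and 22.5 FPKM in Control, against 12.1, 8.64 and 9 in Melphalan (adjusted p = 0.0892). The ranges of the groups were apart in all 4, with Arntl the 1 that was lower in the drug libraries; the hours of collection are not stated, and their part in this was not tested. In the fit on the 6 libraries alone 1 clock gene was called higher. Of 15 immediate early genes 10 lay above 0 (median 0.74), with 5 higher and 1 lower at an unadjusted p under 0.05. Btg2, an antiproliferative gene that p53 also induces, was at 19.8, 18 and 24.3 FPKM without the drug and 33.9, 43 and 50.6 with it (adjusted p = 0.077). Fos, a subunit of the transcription factor AP-1, was at 25.6, 20.6 and 33.9 in the Control libraries and 66.1, 38.5 and 76.8 FPKM in the Melphalan libraries (adjusted p = 0.108). Of 15 genes of NF-kB signalling 13 lay above 0 (median 0.80), 6 of them with an unadjusted p under 0.05. Tnfaip3, its inhibitor A20, was at 8.75, 8.7 and 10.5 FPKM in Control, against 19, 18.1 and 15 in Melphalan (adjusted p = 0.0677).

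Heat shock chaperones had a median of -0.10, genes of the ER and integrated stress response one of 0.22, and 27 interferon-induced genes one of 0.00. Ido1, which degrades tryptophan, was at 17.4, 10.8 and 19.1 FPKM without the drug and 3.98, 4.29 and 8.73 with it (adjusted p = 0.0911), lower in every drug library. Of 15 genes of regenerating epithelium, a state that crypts enter after injury, 13 were above 0 with a median of 0.73 and 0 were called, 8 with an unadjusted p under 0.05. Emp1, an epithelial membrane protein, was at 55.7, 61.4 and 85.2 in the Control libraries and 172, 88.8 and 182 FPKM in the Melphalan libraries (adjusted p = 0.0899), with Melphalan 2 close to Control 3. In 7 of the 15 every drug library lay above every Control library, against 8.82% of all genes. Without Melphalan 2, 3 genes of the list were called higher.

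Markers of immune cells followed 1 library. B cell and follicle genes summed to 34.1, 147 and 30 FPKM in Control and to 9.2, 1828 and 36.3 in Melphalan, and their median change of 1.06 was -0.56 without Melphalan 2. Genes of MHC class II summed to 3740 FPKM in Melphalan 2, beside 620 to 1200 in the other 5 libraries, and their median of 0.72 was -0.16 without it. The T cell median moved from 0.25 to -0.63. Of 21 macrophage and monocyte genes 19 were above 0 with a median of 0.68, and 0.37 without Melphalan 2. The complement gene C1qa was at 5.26, 10 and 11.6 FPKM in Control, against 8.07, 96.6 and 38.8 in Melphalan (adjusted p = 0.243). Plasma cell genes had a median of -0.25, and -1.17 without Melphalan 2; their lowest library was Melphalan 1. The part of these cells in the other results was not tested. The calls of Olfm4, Gsdmc4, Gsdmc2, Gsdmc3 and Defa26 held without Melphalan 2 and also without Melphalan 1.

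**Figure D5:**
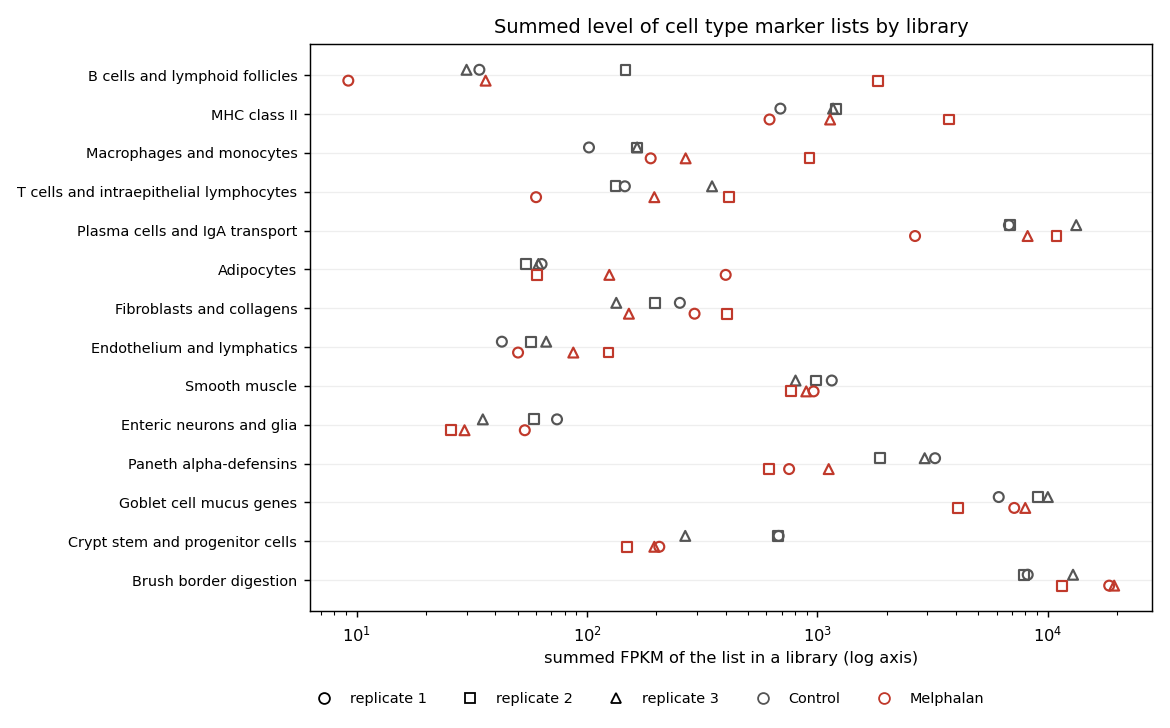
Summed FPKM (horizontal log axis) of 14 cell type marker lists in each Control (grey) and Melphalan (red) library, by replicate. Melphalan 2 (red squares) lies far to the right for B cell, MHC class II and macrophage lists and Melphalan 1 (red circles) for adipocytes, while the alpha-defensin sums of the groups lie apart.

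Stroma, muscle and nerve changed in single genes. Medians were 0.29 for fibroblast and collagen genes, 0.32 for endothelium and -0.13 for smooth muscle, where Acta2, smooth muscle actin, was at 148, 126 and 88.6 FPKM without the drug and 130, 81.3 and 86.4 with it, and 0 genes of these 3 lists were called. Acta1, the actin of skeletal muscle, rose. It was at 0.878, 1.11 and 1.07 in the Control libraries and 16, 4.14 and 17.4 FPKM in the Melphalan libraries (log2 change 2.54, SE 0.44, adjusted p = 0.0224). The other 4 tested striated muscle genes lay below 0, among them Ckm, muscle creatine kinase, which was at 11.9, 8.61 and 7.05 FPKM in Control, against 4.41, 2.37 and 3.34 in Melphalan (adjusted p = 0.0573, and 0.0488 with the block). Vip, a neuropeptide of enteric neurons, fell. It was at 29.8, 25.7 and 6.32 FPKM without the drug and 4.95, 2.36 and 2.39 with it (log2 change -2.16, SE 0.46, adjusted p = 0.0469), with Control 3 close to Melphalan 1. Of 10 tested genes of enteric neurons and glia 6 were below 0. Of the 4 tested globin genes 2 fell. Hba-a1 was at 37.3, 11.7 and 13.9 in the Control libraries and 4.26, 1.23 and 0 FPKM in the Melphalan libraries (log2 change -3.09, SE 0.55, adjusted p = 0.0239). Hba-a2 was at 3.03, 2.11 and 3.29 FPKM in Control, against 1.11, 0.487 and 0 in Melphalan (adjusted p = 0.0373). With a pseudocount of 0.1 FPKM neither was called (adjusted p = 0.1 and 0.162). Summed over 7 red cell genes, Control libraries reached 113, 27.5 and 33.3 FPKM, Melphalan libraries 13.7, 4.07 and 0, and no library of the combined groups more than 2.36. Of the 50-base windows of the 2 transcripts 67.5% and 86.9% are shared with the other alpha-globin gene. With the block Acta1, Vip and Hba-a2 lost their calls (adjusted p = 0.0595, 0.0795 and 0.0723) and Hba-a1 kept its call; without Control 1, without Control 2 or without Melphalan 3 none of the 4 was called. Lists of Notch and lineage choice, of proximal and of distal small intestine, of mesenchymal niche signals, of neutrophils, of mast cells, of histones and of sex-linked genes held no called gene. Xist, the RNA of the inactive X chromosome, lay between 0 and 0.133 FPKM in the 6 libraries.

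The remaining genes of largest change had varied roles. Rhof, a small GTPase that forms filopodia, was at 4.3, 6.89 and 5.32 FPKM without the drug and 27, 21.1 and 23.4 with it (log2 change 1.94, SE 0.28, adjusted p = 0.0135). Sema7a, a membrane-anchored semaphorin, was at 3.25, 3.35 and 1.78 in the Control libraries and 13.4, 9.51 and 11 FPKM in the Melphalan libraries (log2 change 1.71, SE 0.28, adjusted p = 0.0187). Lamb3, a chain of the basement membrane laminin of epithelia, was at 1.43, 0.948 and 0.862 FPKM in Control, against 4.55, 6.05 and 8.5 in Melphalan (adjusted p = 0.0226). Egln3, an oxygen sensor that marks hypoxia-inducible factor for decay, was at 11, 7.05 and 12.7 FPKM without the drug and 51.3, 22.2 and 39.1 with it (adjusted p = 0.0258, and 0.0619 with the block). Sgk2, a kinase that regulates transporters, was at 2.05, 1.57 and 2.47 in the Control libraries and 12.5, 4.72 and 14.6 FPKM in the Melphalan libraries (adjusted p = 0.0375, and 0.0784 with the block). In all 5 the groups were apart. Without Control 1 none of the 5 was called; 1 was without Control 2, 5 without Control 3, 3 without Melphalan 1, 5 without Melphalan 2 and 1 without Melphalan 3.

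Lists of general cell functions held few calls. Of 87 cytosolic ribosomal protein genes 0 were called (median -0.03, and 4 lower at an unadjusted p under 0.05). Of 81 nuclear genes of the respiratory chain 0 were called (median 0.23, and 0.00 after quantile normalization), with 1 higher and 1 lower at an unadjusted p under 0.05. In a list added after the values were seen, of 78 mitochondrial ribosomal proteins 3 fell (3.85%, against 0.833% of all genes) and 55 were below 0, with a median of -0.14. Mrps22 was at 20.5, 26.4 and 17.5 FPKM in Control, against 10.9, 8.38 and 12 in Melphalan (adjusted p = 0.0349). Mrpl3 was at 35, 38.9 and 25.2 FPKM without the drug and 16.2, 18.3 and 14.4 with it (adjusted p = 0.0352). Mrps18b was at 29.9, 30 and 23.2 in the Control libraries and 12.4, 13.1 and 17.3 FPKM in the Melphalan libraries (adjusted p = 0.0394). With the block the 3 lost their calls (adjusted p = 0.0741, 0.0608 and 0.0804), and without Control 1, Control 2, Melphalan 1 or Melphalan 3 no gene of the list was called. Also chosen after their values were seen, the mitochondrial ribosome recycling factor Mrrf and the mitochondrial tRNA synthetases Hars2 and Yars2 fell (adjusted p = 0.0216, 0.0193 and 0.0187) and kept their calls with the block. Of these 3 and the 3 ribosomal proteins none stayed called without Control 1, Control 2 or Melphalan 3, and 6 did without Control 3, 3 without Melphalan 1 and 5 without Melphalan 2. Tfrc, the transferrin receptor, likewise chosen, fell. It was at 77.2, 64.9 and 48.2 FPKM in Control, against 23, 10.2 and 16.2 in Melphalan (log2 change -1.93, SE 0.27, adjusted p = 0.0135). With 1 library left out its adjusted p ran from 0.0116 to 0.0826, so its call did not hold in every such fit.

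In the combined groups most of the called genes lay off the drug alone, on the side of Control. Both groups were given the drug, and the comparison shares the Melphalan and Control libraries that chose the genes, so the values are a description. Genes chosen for extreme Melphalan values would tend to lie nearer Control in any further group. The same counts over all tested genes were not made, so no background share stands beside them. Of the 107 genes that fell, every Mel+MSC library lay above every Melphalan library in 96, and every MSC+Mel library in 91. Of the 64 that rose, the libraries lay wholly below Melphalan in 47 and 39. In the combined groups 27 and 39 of the 107 still lay wholly below Control, and 35 and 46 of the 64 wholly above it. Olfm4 was at 139, 87.6 and 232 FPKM in Mel+MSC and 199, 269 and 257 in MSC+Mel. These lay within the Control range of 79.5 to 399. Ccnb2 was at 17.1, 21.4 and 16.7 FPKM in Mel+MSC and 22.7, 21.6 and 20.7 in MSC+Mel, within the Control range too. Phlda3 was at 3.76, 5.33 and 2.37 FPKM in Mel+MSC and 2.49, 2.77 and 3.91 in MSC+Mel, inside or somewhat above it. Defa26 was at 4.2, 15.1 and 10.5 FPKM in Mel+MSC and 10.3, 12.4 and 18.3 in MSC+Mel, below every Control library. Aqp3 was at 21, 21.4 and 10.7 FPKM in Mel+MSC and 35.1, 40.1 and 24.1 in MSC+Mel, above every Control library. Acta1 was at 7.91, 8.76 and 4.4 FPKM in Mel+MSC and 13.5, 21.7 and 11.2 in MSC+Mel, overlapping the libraries of the drug alone.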

How the data were processed

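RNA sequencing of bulk small intestine (total RNA, TruSeq libraries, per the labels) gave 12 libraries in 4 groups of 3. The deposited table holds FPKM values per gene from the authors. STAR, Cufflinks and Cuffnorm and the builds mm10 and GRCm38 are named in the submitters' processing notes, without versions; whether counting used strand is not given in the sources used here, so antisense and overlapping genes cannot be told apart. Gene coordinates come from GENCODE M21 (GRCm38), which holds 55224 of the 55484 gene IDs. Read depth is unknown, so no counting interval is given.

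Genes that reached 1 FPKM in 3 or more of the 12 libraries entered limma 3.58.1 (R 4.3.3) on log2(FPKM + 1), fitted to the 12 libraries together with a mean for each group, an intensity trend, 8 residual degrees of freedom and Benjamini-Hochberg adjustment over 12847 genes; a call is an adjusted p under 0.05. Each adjusted p in the text is limma's. Genes named are the 15 highest and 15 lowest called changes with groups apart and a group mean of 5 FPKM or more (predicted genes left out), called list members, up to 3 uncalled members of smallest p per list, and fixed markers; exceptions are marked, and some genes that meet the rule are not reported here. The members and lists were chosen with earlier results of these data known. Deviations from the group mean correlated at 0.12, 0.23 and 0.18 in Control and Melphalan libraries of the same number. In other pairs they correlated at -0.18 to 0.04. Deviations within a group cancel, so the low values in other pairs are not separate evidence. The numbers in the sample titles were taken to pair libraries, and a fit of the 12 libraries with them as a block was run. The labels do not say what a number marks, and pairing in the combined groups was not checked. Alternatives were another pseudocount, 2 other filters, quantile and median-of-ratios scaling, the 6 libraries alone, variance factors per group and each library left out. Figures were drawn with matplotlib 3.10.9 in Python 3.11.15.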

Additional observations from a re-analysis of the deposited data

How the results depend on the processing

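Of the 171 calls (64 higher, 107 lower), the count was within 1.5 times with a pseudocount of 0.1 FPKM, a mean of 5 FPKM or more, and quantile or median-of-ratios scaling. With no filter on level 63 genes were called (20 higher, 43 lower), in the 6 libraries alone 4 (1 higher, 3 lower), with variance factors per group 29 (8 higher, 21 lower), and with the replicate block 73 (27 higher, 46 lower). With 1 library left out the count ran from 9 to 420 (3 to 215 higher, 6 to 280 lower). The cause was not tested. Quantile scaling moved the median of all genes from 0.03 to -0.01. Of 84 named genes that were called (Dclre1a is not counted among them), none reversed in a fit run. Their groups lay apart, so most of these fits could not have reversed them. Chga reversed to -0.14 without Control 1 and -0.30 without Melphalan 3, within a range of -0.30 to 0.53 with 1 library left out. Reg3b reversed to 0.30 without Control 2 and 0.24 without Melphalan 2 (range -1.06 to 0.30). Sis reversed to -0.02 with quantile scaling and -0.09 without Melphalan 1 (range -0.09 to 0.65). These 3 genes were not called. With the replicate block 45 of the 84 stayed called, and 2 of the 57 named as not called passed. Read depth is unknown, which leaves the precision of low genes unstated.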

Other observations

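Among the 125 called genes on no list, the 9 given here were chosen after their values were seen, for known roles. Socs2, a feedback inhibitor of growth hormone and cytokine receptors, was at 23.4, 31.2 and 30.4 FPKM without the drug and 11.3, 11.3 and 12.5 with it (log2 change -1.20, SE 0.16, adjusted p = 0.0115), and the drug libraries lay close together. Fads2, the desaturase that begins the synthesis of long polyunsaturated fatty acids, was at 34.3, 27.6 and 13.2 in the Control libraries and 4.62, 7.18 and 6.15 FPKM in the Melphalan libraries (log2 change -1.82, SE 0.32, adjusted p = 0.0239), with Control 3 the lowest Control library. Apex1, the endonuclease of base excision repair, was at 18.1, 25.6 and 13.3 FPKM in Control, against 4.07, 10.7 and 4.79 in Melphalan (adjusted p = 0.0397), lower in every drug library. These 3 fell and the other 6 rose. Cxcl16, a chemokine and scavenger receptor, was at 6.82, 6.74 and 9.54 FPKM without the drug and 22.4, 19.4 and 30.8 with it (log2 change 1.52, SE 0.27, adjusted p = 0.0235). Fkbp5, a cochaperone that glucocorticoids induce, was at 14.7, 12.5 and 13 in the Control libraries and 21.6, 39.9 and 37.3 FPKM in the Melphalan libraries (log2 change 1.19, SE 0.22, adjusted p = 0.0306), with Melphalan 1 the lowest drug library. Zfp385a, a zinc finger protein that binds p53, was at 0.262, 0.53 and 0.163 FPKM in Control, against 2.07, 5.4 and 2.26 in Melphalan (adjusted p = 0.0239). The lysosomal genes Mcoln1, Arsa and Man2b2 rose by less (adjusted p = 0.0397, 0.0469 and 0.0397). With the replicate block, Socs2 and Zfp385a stayed called and the other 7 did not, with adjusted p between 0.0513 and 0.0907. Of the 9, 1 stayed called without Control 1, 0 without Control 2, 9 without Control 3, 6 without Melphalan 1, 8 without Melphalan 2 and 1 without Melphalan 3.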
